A study of Mus musculus with 24 samples.

Results

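The genes described here are the transcription factor Myc and 37 genes whose products build ribosomes in the nucleolus, 38 symbols of the 55291 in a table of mouse gene expression. They were named as a set because Myc and Wdr75 went down less with lipopolysaccharide (LPS) in C57 cells than in B6 cells. That difference is therefore described without a test, and counts of calls are taken over the 36 genes other than Myc and Wdr75. Each of the 38 genes stood at 1 TPM (transcript abundance per fixed library total) or more in all 24 libraries and was among the 13246 genes tested. Dendritic cells were grown from the bone marrow of single mice with the growth factor GM-CSF and were either left untreated or given LPS from Escherichia coli for 6 hours at 10 ng/ml. Mice of 3 strains gave the marrow. B6 and C57 carry the names of classical laboratory mice, and PWD is a strain bred from wild-caught mice of the subspecies musculus. The labels state no age or allele, and the sources used here do not give how C57 differs from B6. The 6 groups, called B6_Untreated, B6_LPS, C57_Untreated, C57_LPS, PWD_Untreated and PWD_LPS, hold 4 libraries each, 1 per mouse and treatment.

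Ribosome assembly starts in the nucleolus, where RNA polymerase I transcribes the precursor of the large ribosomal RNAs. The small-subunit processome folds and cuts the 5′ part of that precursor, small nucleolar ribonucleoproteins (snoRNPs) modify it, and separate sets of GTPases, helicases and scaffold proteins mature the large and the small subunit. Myc is known to bind E-box elements, with CACGTG as the canonical form, near the start sites of many of these genes. Growing and dividing cells are known to need high rates of ribosome assembly, and LPS drives dendritic cells from growth into maturation.

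The start-site regions are shown because Myc's canonical element can be looked for in them directly. RefSeq sequences of build GRCm38.p6, from 250 bases before to 50 bases after the annotated start, were at hand for 31 of the 38 genes (for all but Myc, Fbl, Npm1, Bop1, Gnl2, Rrs1 and Rrp12). CACGTG, which reads the same on both strands, occurred in 7 of these 31 genes, 22.6%, against 8.09% of the 27025 genes in the same table. In the first 250 bases it was found in 1 member (Nop2), 3.23% against 6.86% of all genes, and in the last 50 bases in the other 6, 19.4% against 1.28%. The comparison with all genes thus turned round with the part of the window that was read, and no test was made of either share. The 7 matches, each in 30 bases of the gene's own strand with the element in capitals, were these.
Tsr1, chr11:74898092-74898121, forward strand: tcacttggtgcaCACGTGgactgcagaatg
Utp20, chr10:88826765-88826794, reverse strand: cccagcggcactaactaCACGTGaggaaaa
Mybbp1a, chr11:72441347-72441376, forward strand: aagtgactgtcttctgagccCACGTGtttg
Wdr43, chr17:71616220-71616249, forward strand: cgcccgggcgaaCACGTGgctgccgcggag
Pes1, chr11:3963965-3963994, forward strand: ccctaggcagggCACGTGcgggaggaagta
Ltv1, chr10:13193092-13193121, reverse strand: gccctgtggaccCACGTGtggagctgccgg
Nop2, chr6:125131811-125131840, forward strand: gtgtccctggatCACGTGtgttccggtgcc

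Longer stretches are given for Wdr75, which helped to choose the set and has no match, for Nop2, the only match before the start, and for Tsr1, whose match lies after it. Each runs from 250 bases before the start to 30 bases after it, 280 bases on the forward strand, with CACGTG in capitals. In Nop2 the element begins at base 191 of the stretch, and in Tsr1 it takes the last 6 bases, from base 275. A match is a description of letters and not of binding, and a window without a match says nothing of Myc.
Wdr75, chr1:45794916-45795195: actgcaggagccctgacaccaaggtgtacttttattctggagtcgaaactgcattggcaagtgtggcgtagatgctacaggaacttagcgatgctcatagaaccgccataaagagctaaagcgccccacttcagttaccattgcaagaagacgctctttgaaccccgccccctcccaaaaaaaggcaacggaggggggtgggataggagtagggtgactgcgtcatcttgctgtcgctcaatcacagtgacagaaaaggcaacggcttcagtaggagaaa
Nop2, chr6:125131633-125131912: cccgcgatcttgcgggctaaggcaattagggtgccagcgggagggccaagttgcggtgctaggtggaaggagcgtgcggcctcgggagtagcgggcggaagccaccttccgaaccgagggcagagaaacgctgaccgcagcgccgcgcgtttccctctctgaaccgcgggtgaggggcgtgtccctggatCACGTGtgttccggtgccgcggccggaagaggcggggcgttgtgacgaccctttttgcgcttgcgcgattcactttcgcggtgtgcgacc
Tsr1, chr11:74897830-74898109: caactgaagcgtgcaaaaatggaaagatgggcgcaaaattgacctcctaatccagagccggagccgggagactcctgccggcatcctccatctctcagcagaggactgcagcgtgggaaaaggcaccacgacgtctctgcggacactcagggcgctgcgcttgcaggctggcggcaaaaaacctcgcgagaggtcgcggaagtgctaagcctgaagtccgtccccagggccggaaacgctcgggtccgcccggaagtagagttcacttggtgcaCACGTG

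Every library of the deposited table sums to 1000000 TPM, so read depth is unknown and low values carry an unknown counting error. Structural RNA took 28.8% to 44.2% of TPM, with the widest ranges in PWD_Untreated (28.8% to 41.9%), B6_Untreated (32.0% to 44.2%) and C57_LPS (31.6% to 41.2%). In PWD_Untreated and C57_LPS, libraries 1 and 2 had more of it than libraries 3 and 4. The dendritic cell label was checked against 12 markers, such as the integrin Itgax and MHC class II genes, of which 11 stood at 1 TPM or more in all libraries of both B6 and C57, 10 in PWD_Untreated and 9 in PWD_LPS. All 12 macrophage and monocyte markers did so in each group. In these bulk samples, fewer cells of a type and less RNA per cell cannot be told apart.

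Together the 38 genes were at one level in untreated cells of the 3 strains and at 3 separate levels after LPS. Without structural RNA in the total, their summed TPM made up 0.212% to 0.240% of B6_Untreated libraries, 0.224% to 0.234% of C57_Untreated libraries and 0.223% to 0.226% of PWD_Untreated libraries. After LPS the share was 0.0857% to 0.0919% in B6, 0.127% to 0.135% in PWD and 0.165% to 0.171% in C57. The 3 treated groups did not overlap, and each lay below all untreated libraries. Npm1 and Ncl are the most abundant members, and with both left out the treated groups kept this order without overlap (0.0531% to 0.0553% in B6, 0.0896% to 0.0956% in PWD and 0.111% to 0.119% in C57). B6 and C57 libraries chose the set, so their places in this order are a description.

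**Figure D1:**
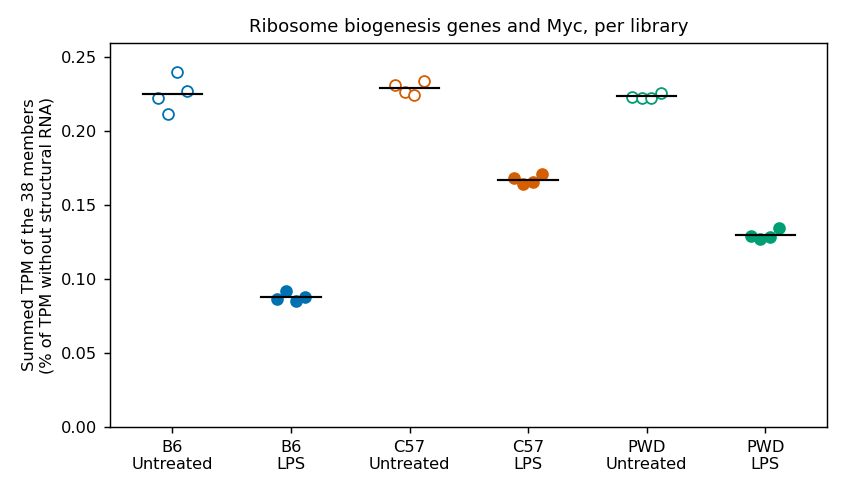
Summed TPM of the 38 genes as a percentage of TPM without structural RNA (y axis) in each library, by strain and treatment (x axis), with open points for untreated cells, filled points for LPS and a line at the mean of 4. Untreated libraries of all strains sit between 0.212% and 0.240%, and the LPS libraries sit at 3 separate levels with B6 lowest and C57 highest.

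Myc (chromosome 15, 61985391 to 61990374, forward strand, mm10) encodes the basic helix-loop-helix transcription factor that drives growth genes. Its level was 34.9, 32.9, 32.6 and 30.6 TPM in the 4 B6_Untreated libraries and 5.05, 5.33, 5.38 and 5.28 TPM in B6_LPS. In C57 it was 35.9, 32.4, 37.3 and 34.9 TPM untreated and 19.4, 15.3, 27.9 and 20.9 TPM with LPS. In PWD it was 43.7, 44.5, 40.2 and 37.6 TPM untreated and 15.3, 14.5, 16.1 and 13.6 TPM with LPS. All LPS libraries lay below all untreated ones, the B6_LPS libraries lay lowest, and the C57_LPS and PWD_LPS libraries overlapped. The mean after LPS was 16.1% of untreated in B6, 59.5% in C57 and 35.8% in PWD. Only PWD was outside the choice of the set: there Myc changed by -1.420 on the log2(TPM + 1) scale (SE 0.11, limma adjusted p = 4.2e-11). The changes in B6 (-2.43) and C57 (-0.75) are given without a test.

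Wdr75 (chromosome 1, 45795166 to 45823619, forward strand, mm10) is a WD-repeat subunit of the part of the processome that joins the nascent precursor first. It was at 25.7, 24.95, 22.4 and 32.3 TPM in B6_Untreated and at 6.37, 5.97, 5.58 and 4.93 TPM in B6_LPS. C57 libraries held 27.6, 27.7, 29.7 and 26.2 TPM untreated and 19.2, 15.6, 22.8 and 19.8 TPM with LPS. PWD libraries held 23.5, 18.8, 26.6 and 25.9 TPM untreated and 13.7, 11.9, 12.6 and 10.7 TPM with LPS. After LPS the 3 strains stood in the order B6, PWD, C57 with no overlap, while the untreated libraries of the 3 strains overlapped. The LPS mean was 21.7% of untreated in B6, 69.6% in C57 and 51.6% in PWD. In PWD, Wdr75 fell by 0.89 (log2, SE 0.12, limma adjusted p = 6.2e-07); in B6 and C57 the changes were -2.02 and -0.51, without a test.

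**Figure D2:**
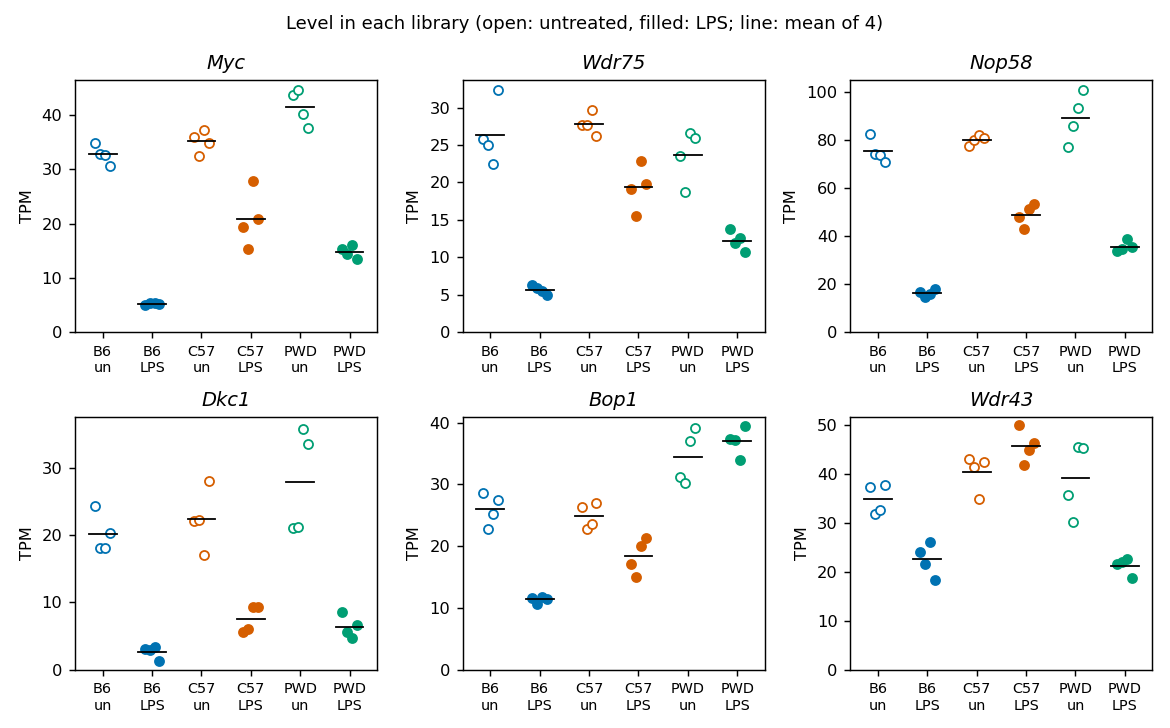
TPM (y axes, each from 0) of Myc, Wdr75, Nop58, Dkc1, Bop1 and Wdr43 in each library of the 6 groups (x axes), with open points untreated, filled points LPS and a line at the mean of 4. Myc, Wdr75, Nop58 and Dkc1 are lower after LPS in each strain, Bop1 stays at 33.9 to 39.5 TPM in PWD_LPS, and Wdr43 stays at 41.9 to 49.99 TPM in C57_LPS.

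LPS lowered most of the other 36 genes in every strain, on a background in which most genes were lower. In B6 all 36 were called lower (limma, adjusted p under 0.05), where 59.7% of all genes tested were, and their median log2 change was -1.39 against -0.43 for all genes. In PWD 33 fell, beside 52.4% of all genes, with a median of -0.88 against -0.32. In C57 34 fell, beside 52.2% of all genes, and the median of -0.53 lay closer to that of all genes, -0.32. None was called higher in B6, C57 or PWD, where 11.9%, 10.4% and 11.1% of all genes were. Since the typical gene moved down with LPS by these medians, the same fit was read after scaling by median-of-ratios size factors, which bring the median of all genes near 0. It gave 35 lower and none higher in B6 (30.4% of all genes lower, 31.2% higher), 32 lower and 2 higher in PWD (26.1% and 27.1%), and 18 lower and 2 higher in C57 (26.4% and 24.8%). Quantile normalization gave 25 lower and 1 higher in C57 (31.3% and 20.7%). The medians after median-of-ratios scaling were -0.86, -0.52 and -0.17. The libraries of the 2 treatments did not overlap for 36 of the 36 genes in B6 (53.8% of all genes, lower), for 34 in PWD (44.4%) and for 32 in C57 (48.4%). The set was chosen for a smaller fall of Myc and Wdr75 in C57 than in B6. Differences between B6 and C57 in these counts and medians are therefore a description.

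Mean levels after LPS say the same in percent. In B6 the 38 genes kept 13.2% (Dkc1) to 64.5% (Wdr43) of their untreated mean, with a median of 35.1%, where the median of all genes was 67.4%. In PWD the range was 22.8% (Dkc1) to 107% (Bop1) with a median of 51.6% (all genes 75.7%). In C57 it was 33.9% (Dkc1) to 113% (Wdr43) with a median of 68.9% (all genes 75.4%). The B6 and C57 values belong to the contrast that chose the set and are a description. Of the 36 genes other than Myc and Wdr75, 17 kept less than 50% in PWD, beside 14.1% of all genes tested. In B6 33 did (all genes 27.2%) and in C57 5 (13.2%), from which nothing is drawn.

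**Figure D3:**
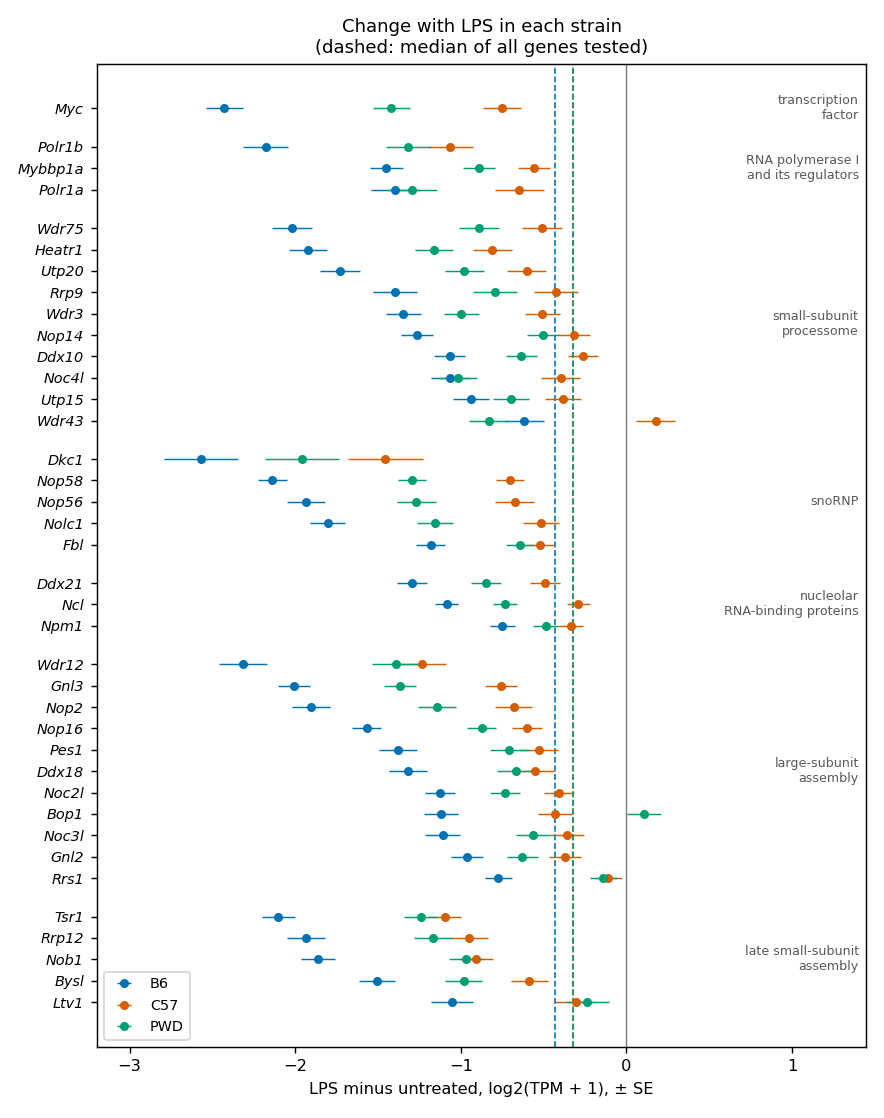
Log2(TPM + 1) change with LPS (x axis, point and SE from the fit across 24 libraries) of each of the 38 genes (y axis, grouped by role) in B6, C57 and PWD, with dashed lines at each strain's median over all genes tested. B6 points lie furthest to the left for all genes but Wdr43, Bop1 lies at 0.11 in PWD and Wdr43 at 0.18 in C57.

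The RNA polymerase I members are the 2 largest subunits, Polr1a and Polr1b, and Mybbp1a, a nucleolar regulator of rDNA transcription. All 3 fell in each strain (all genes 59.7% in B6, 52.2% in C57 and 52.4% in PWD). After median-of-ratios scaling 18 of the 36 genes were called lower in C57, so counts by role there depend on the scaling. Polr1b was at 11.2, 11.0, 9.001 and 11.8 TPM in B6_Untreated and at 1.71, 1.60, 1.87 and 1.22 TPM in B6_LPS. Its C57 values were 9.003, 10.2, 10.5 and 11.9 TPM untreated and 3.62, 3.76, 5.57 and 4.97 TPM with LPS, and its PWD values 10.5, 9.78, 15.9 and 13.1 TPM and 3.997, 4.22, 4.09 and 4.81 TPM. The untreated strains overlapped, and B6_LPS lay below both other LPS groups, which overlapped. The log2 changes of Polr1b were -2.18 in B6, -1.06 in C57 and -1.32 in PWD. Mybbp1a, the most abundant of the 3 by mean TPM, held 54.9, 51.4, 48.7 and 57.1 TPM in B6_Untreated and 20.1, 17.3, 19.2 and 18.4 TPM in B6_LPS. C57 held 55.7, 56.1, 52.5 and 57.2 TPM untreated and 34.5, 33.3, 40.2 and 41.6 TPM with LPS, and PWD 48.4, 52.5, 66.1 and 67.1 TPM and 28.2, 31.0, 32.5 and 31.5 TPM. For this gene the 3 LPS groups did not overlap. Polr1a fell by 1.40 in B6, 0.65 in C57 and 1.30 in PWD.

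Small-subunit processome members other than Wdr75 number 9, and all fell in B6 and PWD and 8 in C57 (all genes 59.7%, 52.4% and 52.2%). Heatr1, a large scaffold of the same early module as Wdr75, fell most in each strain: by 1.92 in B6, 0.81 in C57 and 1.16 in PWD. Utp20, a second giant scaffold, fell by 1.73, 0.60 and 0.98. Wdr43 was the exception to the order of the strains. It stood at 37.3, 31.9, 32.6 and 37.8 TPM in B6_Untreated and 24.1, 21.6, 26 and 18.4 TPM in B6_LPS. C57 held 43.0, 41.5, 34.8 and 42.4 TPM untreated and 49.99, 41.9, 44.9 and 46.2 TPM with LPS, so the treatments overlapped. PWD held 35.7, 30.1, 45.5 and 45.2 TPM untreated and 21.7, 22.1, 22.6 and 18.7 TPM with LPS. Wdr43, also an early-module subunit, thus fell in B6 (-0.62, SE 0.12, limma adjusted p = 4.9e-05) and in PWD (-0.83, adjusted p = 1.3e-06). In C57 its value was 0.18 (SE 0.12, adjusted p = 0.198), and after median-of-ratios scaling it was called higher there, at 0.54. The helicase Ddx10 and Nop14 had small changes in C57 (-0.26 and -0.32) that turned positive under that scaling (0.083 and 0.031).

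All 5 snoRNP members fell in every strain (all genes 59.7% in B6, 52.2% in C57 and 52.4% in PWD). Nop58 and Nop56 form the core of the box C/D particles that guide 2′-O-methylation, with Fbl (fibrillarin) as the methyltransferase. Nop58 was at 82.5, 74.2, 73.8 and 71.0 TPM in B6_Untreated and at 16.9, 14.9, 15.8 and 17.9 TPM in B6_LPS. C57 held 77.6, 80.0, 82.1 and 80.8 TPM untreated and 47.8, 43.2, 51.5 and 53.5 TPM with LPS, and PWD 76.9, 86.0, 93.3 and 100.8 TPM and 33.7, 34.8, 38.7 and 35.5 TPM. The LPS groups of Nop58 did not overlap. Its log2 change was -2.14 in B6 (SE 0.09, limma adjusted p = 6.3e-17), -0.70 in C57 and -1.29 in PWD. Nop56 had similar changes (-1.93, -0.68 and -1.27), whereas Fbl changed less (-1.18, -0.52 and -0.64).

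Dkc1, the pseudouridine synthase of box H/ACA particles, had the lowest log2 change of all members in each strain: -2.57 in B6, -1.46 in C57 and -1.96 in PWD, each with an SE of 0.23. Its libraries spread widely. PWD_Untreated held 21.1, 21.2, 35.8 and 33.5 TPM, where libraries 3 and 4, with less structural RNA, stood above 1 and 2, and PWD_LPS held 8.54, 5.597, 4.65 and 6.66 TPM. The part of structural RNA in this split was not tested. Nolc1, a chaperone of both particle types, fell by 1.80, 0.52 and 1.16 in B6, C57 and PWD.

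The nucleolar RNA-binding members Npm1, Ncl and Ddx21 are abundant multifunctional proteins of the nucleolus, and all 3 fell in each strain (all genes 59.7% in B6, 52.2% in C57 and 52.4% in PWD). Npm1 (nucleophosmin) held 305.6, 270.9, 262.1 and 286.1 TPM in B6_Untreated and 172.7, 167.7, 166.5 and 159.9 TPM in B6_LPS. It held 320.6, 305.7, 293.7 and 307.9 TPM in C57_Untreated and 240.3, 225.5, 250.8 and 255.4 TPM in C57_LPS, while PWD went from 205.3, 214.5, 243.6 and 262.1 TPM to 156.7, 166.6, 165.5 and 167.8 TPM. C57_LPS lay above both other LPS groups, which overlapped. Npm1 fell by 0.75 in B6, 0.34 in C57 and 0.49 in PWD. Ncl (nucleolin) fell by 1.09, 0.29 and 0.73. The helicase Ddx21 held 53.7, 47.5, 48.8 and 51.1 TPM in B6_Untreated and 22.0, 18.4, 21.1 and 18.1 TPM in B6_LPS. C57 held 53.0, 56.2, 47.6 and 52.3 TPM untreated and 35.8, 35.3, 38.5 and 37.96 TPM with LPS, and PWD 43.5, 42.8, 57.3 and 51.3 TPM and 24.9, 25.5, 28.1 and 27.2 TPM. Its 3 LPS groups did not overlap, and it fell by 1.30, 0.49 and 0.85. In C57, Npm1 and Ncl were at 0.031 and 0.075 after median-of-ratios scaling, so their direction there depends on it.

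Large-subunit assembly has 11 members, all lower in B6, 10 in C57 and 9 in PWD (all genes 59.7%, 52.2% and 52.4%). Pes1, Bop1 and Wdr12 form the PeBoW complex, which is needed to process the precursor of the large-subunit RNAs, and its 3 genes parted in PWD. Wdr12 fell in all strains (-2.32 in B6, -1.24 in C57 and -1.39 in PWD). Pes1 went from 61.2, 41.6, 48.8 and 53.9 TPM to 18.2, 15.8, 19.4 and 23.1 TPM in B6, and from 46.6, 47.8, 50.3 and 44.9 TPM to 31.1, 31.6, 37.2 and 30.7 TPM in C57. Its PWD values went from 46.2, 44.1, 51.1 and 57.3 TPM to 25.3, 31.0, 32.2 and 31.7 TPM. It fell by 1.38, 0.53 and 0.71 in the 3 strains.

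Bop1 (chromosome 15, 76452989 to 76477277, reverse strand, mm10) held 28.7, 22.8, 25.2 and 27.5 TPM in B6_Untreated and 11.7, 10.7, 11.8 and 11.4 TPM in B6_LPS. C57 libraries held 26.4, 22.8, 23.6 and 27.0 TPM untreated and 17.1, 15.0, 20.0 and 21.3 TPM with LPS. PWD libraries held 31.2, 30.3, 37.0 and 39.2 TPM untreated and 37.3, 37.2, 33.9 and 39.5 TPM with LPS. In PWD the treatments overlapped, and all 4 PWD_LPS libraries lay above every LPS library of the other strains. Bop1 changed by -1.12 in B6 (SE 0.10, limma adjusted p = 5.1e-10), by -0.43 in C57 (adjusted p = 8.9e-04) and by 0.11 in PWD (adjusted p = 0.385). Under median-of-ratios scaling the PWD value was 0.48 and was called higher.

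Rrs1, which helps to bring 5S RNA into the large subunit, was the other gene of this role that moved little outside B6. Its value was -0.77 in B6, where it fell, -0.11 in C57 (limma adjusted p = 0.251) and -0.14 in PWD (adjusted p = 0.143). After median-of-ratios scaling the latter 2 were 0.24 and 0.23, both called higher. The GTPase Gnl3 (nucleostemin) fell by 2.01, 0.76 and 1.37 in B6, C57 and PWD, and the methyltransferase Nop2 by 1.91, 0.68 and 1.14. The other members of the role (Nop16, Noc2l, Noc3l, Gnl2 and Ddx18) fell by 0.96 to 1.57 in B6, 0.36 to 0.60 in C57 and 0.56 to 0.88 in PWD.

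Late small-subunit assembly was represented by Tsr1, Nob1, Bysl, Ltv1 and Rrp12, which act on pre-40S particles in the nucleus and cytoplasm. All 5 fell in B6 and C57 and 4 in PWD (all genes 59.7%, 52.2% and 52.4%). Nob1 is the endonuclease that makes the last cut of 18S RNA. It was at 21.8, 18.4, 18.8 and 19.7 TPM in B6_Untreated and at 4.74, 4.45, 5.17 and 4.33 TPM in B6_LPS. C57 held 25.2, 24.6, 22.8 and 23.3 TPM untreated and 11.6, 11.0, 12.7 and 14.1 TPM with LPS, and PWD 16.3, 16.5, 17.7 and 21.7 TPM and 7.27, 8.36, 9.36 and 10.0 TPM. The 3 LPS groups did not overlap, and the log2 changes were -1.86, -0.91 and -0.97.

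Tsr1, a GTPase-like factor that blocks premature joining of the subunits, held 31.8, 27.6, 27.9 and 32.0 TPM in B6_Untreated and 6.10, 6.00, 6.05 and 6.51 TPM in B6_LPS. In C57 it held 26.7, 25.04, 25.7 and 25.7 TPM and then 11.2, 10.2, 12.6 and 12.3 TPM. PWD had more of it in both states, with 33.0, 35.0, 42.3 and 46.0 TPM and then 14.0, 14.7, 17.5 and 17.2 TPM, above every library of the other strains with the same treatment. It fell by 2.10 in B6, 1.10 in C57 and 1.24 in PWD. Ltv1, an export and assembly factor, fell in B6 (-1.05) and C57 (-0.30). In PWD it was at -0.24 (limma adjusted p = 0.109), and at -0.33 without PWD_Untreated replicate 1, where it was called lower (adjusted p = 0.028). Median-of-ratios scaling turned Ltv1 to 0.13 in PWD and 0.052 in C57, and quantile normalization to 0.059 in PWD, so its direction there depends on the scaling.

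The LPS response was compared between strains as the difference of the log2 changes. PWD cells lost less than B6 cells: 28 of the 36 genes had a higher response in PWD (limma, adjusted p under 0.05), where 16.0% of all genes did, and none a lower one (all genes 7.50%). The median difference was 0.64, against 0.14 for all genes. Bop1 differed most, by 1.23 (SE 0.15, adjusted p = 6.6e-07), followed by Wdr12 (0.92), Nob1 (0.90), Polr1b (0.86), Tsr1 (0.86) and Nop58 (0.84). The difference was 0.56 for Mybbp1a, 0.45 for Ddx21 and 0.67 for Pes1. Dkc1, Gnl2, Noc4l, Npm1, Polr1a, Utp15, Wdr3 and Wdr43 were not called, with Wdr43 at -0.22 (SE 0.17, adjusted p = 0.383) the only one below 0. After median-of-ratios scaling 26 were higher and 1, Wdr43, was lower (all genes 14.9% and 16.8%). The B6 libraries in this comparison also served to choose the set, so its count is not independent of that choice. With only the mice numbered 3 and 4, 16 genes were called higher (all genes 6.10%), and the median of all genes was -0.064.

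Set against C57, the response was lower in PWD for 9 of the 36 genes, where 5.99% of all genes were lower, and higher for Bop1 alone (all genes 5.41%). The median difference was -0.33, against 0.00027 for all genes. Wdr43 differed most (-1.01, SE 0.17, limma adjusted p = 1.2e-04), with Nolc1 (-0.64), Polr1a (-0.65), Noc4l (-0.62), Gnl3 (-0.61), Nop56 and Nop58 (both -0.59), Wdr3 (-0.49) and Ncl (-0.44). Bop1 differed by 0.54 (SE 0.15, adjusted p = 0.0157). The count of 9 became 18 under both median-of-ratios scaling and quantile normalization (10.4% and 10.8% of all genes), and 17 without structural RNA (10.0%). It was 1 with only the mice numbered 1 and 2 (2.20% of all genes) and 20 with only those numbered 3 and 4 (15.0%). The median of all genes moved likewise, from 0.26 to -0.25. The C57 libraries also served to choose the set, for a smaller fall there, so this count is not independent of that choice.

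Between C57 and B6 the contrast chose the set, and its values follow without a test. All 38 genes had a response above 0 in C57 relative to B6, as had 65.1% of all genes (46.8% after median-of-ratios scaling), and the median of the 36 was 0.87 against 0.12 for all genes. By role, the medians were 1.26 for the snoRNP genes, 0.96 for late small-subunit assembly, 0.89 for RNA polymerase I, 0.84 for the processome, 0.80 for the nucleolar RNA-binding proteins and 0.77 for large-subunit assembly. The lowest value was that of Npm1 (0.41) and the highest among the 36 that of Nop58 (1.44). PWD and C57 responses were each set against the same B6 libraries, so the first and the last of these 3 comparisons share them.

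Before treatment the strains differed in few of the 36 genes, and which way depended on the scaling. PWD_Untreated was above B6_Untreated for 9 genes and below for 3 (all genes 37.2% and 19.7%); median-of-ratios scaling gave 4 and 10 (31.6% and 30.2%). Bop1 (0.39) and Tsr1 (0.37) were higher in PWD under both, and Nop16 (-0.44), Fbl (-0.34) and Npm1 (-0.28) were lower. C57_Untreated was above B6_Untreated for 6 genes and below for 1, Nop16 (all genes 31.9% and 6.92%), or for 1 and 11 after that scaling (20.2% and 19.6%) and 2 and 8 after quantile normalization (21.4% and 18.9%). Utp15, a processome subunit, was the gene higher in C57 under both (0.38 and 0.18). PWD_Untreated was above C57_Untreated for 3 genes (Bop1, Polr1a and Tsr1) and below for 5 (all genes 20.1% and 26.2%), or 10 and 4 (27.5% and 27.5%). These counts moved most with single libraries. The 9 genes higher in PWD than B6 became 5 without PWD_Untreated replicate 3. The 6 higher in C57 than B6 became 3 without B6_Untreated replicate 2 or without C57_Untreated replicate 1, 2 or 4. The 5 lower in PWD than C57 became 2 without C57_Untreated replicate 2 or PWD_Untreated replicate 1 or 2, and 3 without C57_Untreated replicate 1 or 4.

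After LPS the strain differences were wide. PWD_LPS was above B6_LPS for 33 of the 36 genes and below for none (all genes 49.7% and 19.0%), with a median of 0.65 against 0.28 for all genes; median-of-ratios scaling gave 28 and 2 (35.7% and 34.1%). Bop1 (1.61) and Tsr1 (1.23) had the largest differences, and Noc4l, Npm1 and Wdr43 were not called. PWD_LPS was below C57_LPS for 23 genes (all genes 29.8%) and above for Bop1 (0.98) and Tsr1 (0.42), the only 2 (24.4%), with a median of -0.31 against -0.049. Wdr43 (-1.07) and Gnl3 (-0.85) were furthest below. C57_LPS was above B6_LPS for all 36 and below for none (all genes 49.1% and 9.69%), with a median of 0.96 against 0.29, but these libraries are part of the contrast that chose the set, and nothing is drawn from that count. The counts of PWD against B6 or C57 share libraries with that contrast and are not independent of the choice. The group means stood in the order B6, PWD, C57 for 32 of the 36 genes (27.5% of all genes), the exceptions being Wdr43, Npm1, Bop1 and Tsr1. The set was chosen for a smaller fall of Myc and Wdr75 in C57 than in B6. B6 below C57 is not independent of that choice, so this order is a description. For 16 of the 36 the 3 groups were in this order with no overlap (4.64% of all genes, from which again nothing is drawn), among them Mybbp1a, Heatr1, Nop58, Ncl, Ddx21, Gnl3 and Nob1.

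Other genes of the pathway, from lists that hold none of the 38, were mostly lower too, with medians nearer to those of all genes (-0.43 in B6, -0.32 in C57 and -0.32 in PWD). Of all genes tested, 59.7%, 52.2% and 52.4% fell and 11.9%, 10.4% and 11.1% rose in B6, C57 and PWD. In C57 the medians of the processome, RNA polymerase I and late small-subunit lists (-0.26, -0.36 and -0.33) lay near that of all genes, the first above it. Of 49 other large-subunit assembly factors, 47 fell and none rose in B6 (median -1.06), 35 fell and 1 rose in C57 (-0.41), and 43 fell and 3 rose in PWD (-0.63). Ppan, a large-subunit assembly factor, fell by 2.13 in B6 and 1.23 in PWD. Of 39 other processome factors, 34 fell and 1 rose in B6 (-0.93), 23 fell and 2 rose in C57 (-0.26), and 27 fell and 2 rose in PWD (-0.49), with the acetyltransferase Nat10 at -1.74, -0.87 and -1.12. Of 13 other snoRNP proteins, 13, 10 and 12 fell in B6, C57 and PWD and none rose (medians -0.84, -0.48 and -0.50), and Gar1, a partner of Dkc1, was at -2.03, -0.62 and -1.05. Of 15 other genes of RNA polymerase I transcription 13, 9 and 11 fell and none rose (-0.75, -0.36 and -0.47). Of 9 other late small-subunit factors 9, 5 and 8 fell and none rose (-0.73, -0.33 and -0.44). The medians of the 36 members were lower than these in each strain, but the members were picked with results known and the difference was not tested. After median-of-ratios scaling the medians of the processome and RNA polymerase I lists in C57 were 0.080 and 0.0053, so those turned direction. The counts of lower genes also shrank. In C57, 16 large-subunit factors were then lower and 7 higher, and 11 processome factors lower and 13 higher (all genes 26.4% and 24.8%). In PWD, 29 of the former and 17 of the latter were lower, and 5 and 7 higher (26.1% and 27.1%). Of the late small-subunit factors 1 was lower and 1 higher in both C57 and PWD. In B6 each list kept more genes lower than higher (30.4% and 31.2%).

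Genes for the proteins of the finished ribosome lay near the median of all genes. Of 79 cytosolic ribosomal protein genes, 77 fell in B6, 70 in C57 and 57 in PWD (all genes 59.7%, 52.2% and 52.4%), and 0, 1 and 0 rose (all genes 11.9%, 10.4% and 11.1%). The medians were -0.47, -0.36 and -0.27 against -0.43, -0.32 and -0.32 for all genes. After median-of-ratios scaling 28 rose and 2 fell in B6 (all genes 31.2% and 30.4%), 8 and 18 in C57 (24.8% and 26.4%), and 33 and 6 in PWD (27.1% and 26.1%). The direction thus turned in B6 and PWD. In C57 more were lower than higher under both, with a median of 0.012 after scaling. Known Myc targets outside ribosome assembly were represented by 31 genes. Of these 27 fell and 2 rose in B6 (median -1.11), 25 and 2 in C57 (-0.58) and 26 and 2 in PWD (-0.86). The spermidine synthase Srm was at -2.33, -1.003 and -1.60, and Ccnd2 (cyclin D2) rose by 2.01 in B6. Of 10 partners and antagonists of Myc 5, 5 and 4 fell and 3, 3 and 0 rose. After median-of-ratios scaling 4, 4 and 3 fell (all genes 30.4%, 26.4% and 26.1%). Then 4, 4 and 4 rose (all genes 31.2%, 24.8% and 27.1%), so the lack of rises in PWD depends on the scaling. Beside the counts of both Myc lists before scaling, 59.7%, 52.2% and 52.4% of all genes fell in B6, C57 and PWD. Of all genes, 11.9%, 10.4% and 11.1% rose. The antagonist Mxd1 rose by 1.24 in both B6 and C57, while Mxd4 (-1.56, -1.40 and -0.84) and Mnt (-1.26, -0.78 and -0.76) fell in each strain.

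**Figure D4:**
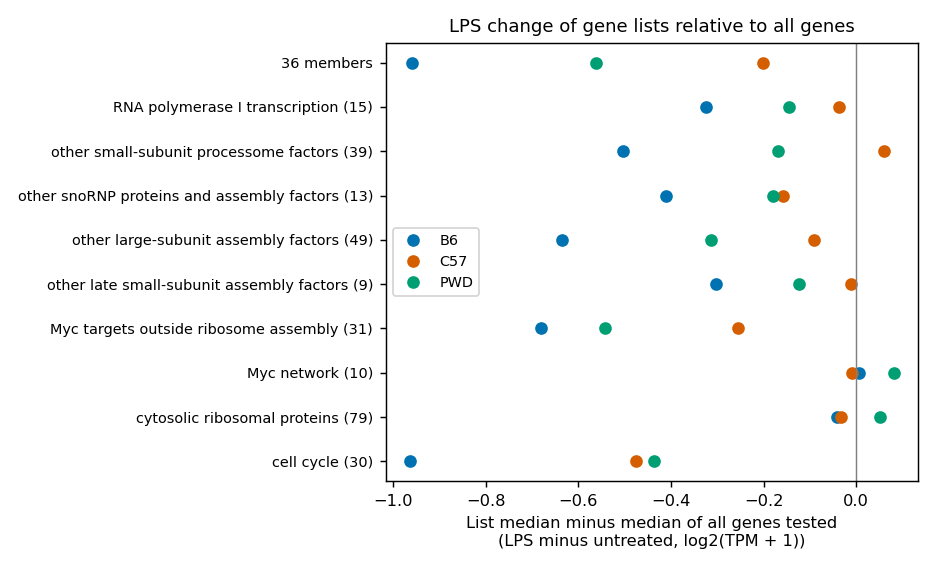
Median log2(TPM + 1) change with LPS of the 36 genes and of 9 other gene lists (y axis, number tested in brackets), minus the median of all genes tested (x axis), for B6, C57 and PWD. The 36 genes lie below 0 in each strain with B6 lowest, cytosolic ribosomal proteins lie near 0, and cell cycle genes also lie below 0.

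Genes of cell division fell with LPS too. Of 30 cell cycle genes, 29 fell and 1 rose in B6 (median -1.39, all genes 59.7% and 11.9%), 29 fell in C57 (-0.80, all genes 52.2%) and 28 in PWD (-0.76, all genes 52.4%). Their median response differed by 0.60 between PWD and B6 (the 36 genes 0.64) and by 0.098 between PWD and C57 (the 36 genes -0.33). Their summed level ran from 552 to 699 TPM in B6_Untreated, 1029 to 1144 in C57_Untreated and 784 to 1011 in PWD_Untreated, and from 252 to 278, 572 to 751 and 514 to 593 TPM after LPS. They were higher in untreated C57 than in untreated B6 for 30 of 30 genes (median 0.84, all genes 31.9%), and higher in untreated PWD for 26 and lower for 1 (median 0.66, all genes 37.2% and 19.7%). Markers of other cells also differed between strains. The 12 macrophage and monocyte markers summed to 5503 to 7084 TPM in B6_LPS, 7534 to 10530.3 in C57_LPS and 4280.0 to 4625 in PWD_LPS. Dendritic cell markers summed to 8620.4 to 10292, 2922 to 3452 and 4119.6 to 6147 TPM in those groups, and the 13 neutrophil and granulocyte precursor markers to 1462 to 1731, 1702 to 3285 and 1339 to 2028 TPM. The 9 mast cell, basophil and eosinophil markers summed to 8.07 to 11.1, 8.18 to 28.8 and 84.5 to 197 TPM, and the 10 lymphoid and plasmacytoid markers to 329 to 393, 220.0 to 246 and 96.0 to 124 TPM. Untreated, the lymphoid and plasmacytoid sum was 96.9 to 129 TPM in B6, 90.6 to 105 in C57 and 32.0 to 42.0 in PWD. It thus rose with LPS in each strain, and untreated B6 and C57 overlapped. Of the lymphoid and plasmacytoid markers, Cd3e (T cells) and Ncr1 (NK cells) were each under 0.1 TPM in 5 of the 6 groups. A sum follows the most abundant genes of its list. After LPS, 2 of the 7 mast cell, basophil and eosinophil markers tested were higher in PWD than B6 and 1 lower (median -0.13). Of the macrophage and monocyte markers, 5 were higher in C57 than B6 and 4 lower, and 1 and 9 in PWD. All genes were at 49.7% and 19.0% for PWD against B6, and at 49.1% and 9.69% for C57 against B6. In untreated cells, 9 dendritic cell markers were lower in C57 than B6 and 10 in PWD, and 0 were higher. Of the neutrophil and granulocyte precursor markers, 11 were higher in untreated C57 than B6 and 0 lower, and 8 and 2 in PWD. All genes untreated were at 31.9% and 6.92% for C57 and 37.2% and 19.7% for PWD. The part of dividing cells and of the mix of cells in the strain differences of the 38 genes was not tested.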

How the data were processed

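RNA was sequenced in bulk from 24 libraries of dendritic cells. Total RNA went into a stranded library kit, per the labels' protocols. The deposited values are TPM, which the authors computed; STAR, edgeR and mm10 stand in the submitters' processing notes, and the sources used here do not give the annotation or how TPM were made. How differences between PWD and mm10 bear on mapping was not tested. Libraries were grouped by strain and treatment from the labels, and no 2 held identical values. Within a group, r between libraries was 0.980 to 0.990 over genes.

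Lines sharing a symbol were summed. The 13246 genes that reached 1 TPM in 4 libraries were kept. Their log2(TPM + 1) values entered 1 linear model of the 6 groups in limma (3.58.1, R 4.3.3), moderated by robust empirical Bayes with a trend. Tests were two-sided, p-values were Benjamini-Hochberg adjusted over all 13246, and an adjusted p under 0.05 made a call. A pseudocount of 1 TPM makes the fold changes of low genes too small. Tested on simulated data for LPS in PWD (13246 genes), the fit recovered 56.1%, 94.0% and 100% of genes changed by 0.5, 1 and 2, with 11 false calls. Coordinates are from GENCODE M21 on mm10 and start-site sequences from RefSeq.

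The members, their 7 roles, the 14 lists (338 genes, 322 tested), the tests and the alternatives were chosen with earlier results of these data known. Any member may be named. Values per library are given for Myc, Wdr75 and, in each role, for the gene with the highest mean TPM and the one with the largest difference in response between PWD and B6. Bop1 is one of these, and the PWD libraries of Dkc1 were added after their values were seen. From the lists at most 4 called genes each are named. The 3 sequences of 280 bases were picked from the matches for their place, with Wdr75.

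The design text gives individual mice with independent cultures, so the same number within a strain was taken as 1 mouse. After removal of group means the 2 libraries of a mouse correlated with r of 0.0513 to 0.176 in 12 pairs, and 9 of 12 correlated best with their own partner. Results were recomputed with scaling by median-of-ratios, with quantile normalization, without structural RNA, with 0.1 TPM added instead of 1, with the filter at 5 TPM or absent, without trend and robust moderation, from only the groups compared, with a replicate block, from mice 1 and 2 or mice 3 and 4 alone, and without each library in turn.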

Additional observations from a re-analysis of the deposited data

Results flagged for a closer look

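Pes1 in C57_LPS had 1 library, at 37.2 TPM, further from the other 3 than Dixon's critical value for 4 samples allows, the only such case in 72 groups of 4 libraries over 12 genes. Chance alone marks about 1 in 20 groups.

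The LPS response differed between PWD and B6 by a test of the difference itself (limma, adjusted p under 0.05) for 8 of the genes whose libraries are shown. It was higher in PWD by 0.558 for Mybbp1a, 0.862 for Polr1b, 0.844 for Nop58, 0.446 for Ddx21, 0.672 for Pes1, 1.23 for Bop1, 0.858 for Tsr1 and 0.898 for Nob1 (log2). Between PWD and C57 it was lower in PWD by -1.01 for Wdr43 and -0.592 for Nop58 and higher by 0.538 for Bop1. Of all genes tested, 16.0% had a higher and 7.50% a lower response in PWD than in B6. Against C57 these shares were 5.41% and 5.99%. The genes were shown in part for the largest difference between PWD and B6 in their role, so nothing is drawn from these calls.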

How the results depend on the processing

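The counts of genes lower with LPS in B6 and PWD, and higher after LPS in PWD and C57 than in B6, stayed within 1.5 times under all alternatives run, although Fbl and Nop16 turned sign in PWD against B6 after LPS (values in the last paragraph). The count of C57 against B6 comes from libraries that chose the set, so nothing is drawn from its stability. The 34 genes lower with LPS in C57 became 18 after median-of-ratios scaling. Untreated counts were the least stable. The 9 genes higher in PWD than B6 became 4 after median-of-ratios scaling, 4 with only the groups compared, 1 with mice 1 and 2 and 18 with mice 3 and 4. The 6 higher in C57 than B6 became 1, or 2 after quantile normalization, 2 with mice 1 and 2 and 1 with mice 3 and 4. The 5 lower in PWD than C57 became 2 with only the groups compared, 10 with mice 1 and 2 and 1 with mice 3 and 4. For the response, the 28 of PWD against B6 became 16 with mice 3 and 4. The 9 of PWD against C57 became 18 after either scaling, 17 without structural RNA, 1 with mice 1 and 2 and 20 with mice 3 and 4. The cause was not tested for any of these; the fits of mice by number hold 2 libraries per group, and a fit of only the groups compared estimates the spread from fewer.

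Leaving out each library in turn gave 36 to 36 genes for LPS in B6, 32 to 34 in C57 and 33 to 34 in PWD. Untreated counts ran from 5 to 11 (PWD above B6), 3 to 7 (C57 above B6) and 2 to 6 (PWD below C57), and counts after LPS from 31 to 33, 36 to 36 and 19 to 25. The response counts ran from 26 to 30 (PWD against B6) and 7 to 13 (PWD against C57), the 38 of 38 above 0 (C57 against B6) stayed at 38, Myc in PWD ran from -1.47 to -1.38 and Wdr75 from -0.995 to -0.834. Counts of C57 against B6 come from libraries that chose the set, so nothing is drawn from their stability. With a block by mouse the counts were 36, 34 and 33 for LPS in B6, C57 and PWD. For strain comparisons within a treatment the block was the replicate number, which different mice share across strains. This block ended 2 single calls, Ncl untreated (C57 against B6, 0.18) and Ltv1 after LPS (PWD against C57, -0.30).

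The sign of single genes turned in 21 cases. With LPS in C57, median-of-ratios scaling gave 0.031 for Nop14, 0.083 for Ddx10, 0.075 for Ncl, 0.031 for Npm1, 0.24 for Rrs1 and 0.052 for Ltv1, and quantile normalization 0.0068 for Nop14, 0.075 for Ddx10, 0.024 for Noc3l and 0.13 for Rrs1, which was at 0.018 with mice 3 and 4. With LPS in PWD, the 2 scalings gave 0.23 and 0.13 for Rrs1 and 0.13 and 0.059 for Ltv1, and Bop1 was at -0.056 with mice 3 and 4. PWD against B6 after LPS was -0.13 for Fbl after median-of-ratios scaling and -0.039 and -0.13 for Nop16 after the 2 scalings. Ncl was at -0.033 (C57 against B6, untreated, median-of-ratios), and the response of Wdr43 (PWD against B6) at 0.012 with mice 1 and 2. TPM keep no depth, which limits what can be said of members near 1 to 5 TPM in B6_LPS.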
